A study of Mus musculus with 9 samples.

Results

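miR-122 is a microRNA (miRNA), a short RNA that pairs with messenger RNAs and lowers their translation and stability. It was followed here through its mature arms, mmu-miR-122-5p and mmu-miR-122-3p, which are 2 of the 1881 mouse miRNAs on the array. Both were found by their names in the scanner files, each with 2 probes, and each probe was read on its own on all 9 arrays. The study asked how diet and metformin, the common glucose-lowering drug for diabetes, change miRNAs of the mouse liver.

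Each array measured 1 pool of liver tissue from 4 male C57BL/6J mice, wild-type animals of an inbred strain, with liver collected at 20 weeks of age. The metformin group (3 pools) was fed from 3 weeks of age, for 17 weeks, on a diet in which fat gave 45% of the energy, and from 15 weeks of age received metformin by stomach tube at 3 mg per kg per day for 5 weeks. The high fat diet group (3 pools) ate that diet over the same time and received saline by stomach tube for the last 5 weeks. The control group (3 pools) ate chow for 17 weeks, and no source used here says whether it received a vehicle. Metformin was given only on top of the high fat diet, so the metformin and control groups differ in both diet and drug. Arrays differ as pools of mice differ, so p-values apply to pools, and in whole liver fewer cells of a type and less RNA per cell cannot be told apart.

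In the liver, miR-122 is made almost wholly by hepatocytes, where it is the most abundant miRNA. The 5p arm is the guide strand that is loaded into Argonaute proteins. The 3p arm is the passenger strand, most of which is degraded. miR-122 represses genes such as aldolase A and the amino acid transporter Slc7a1, and mice without it have lower blood cholesterol, lower triglyceride secretion and, with age, fatty and inflamed livers. Blocking it lowers cholesterol in mice fed a high fat diet.

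With faulty array edges left out the level of the guide strand, miR-122-5p, was close to the same in all 3 groups. In that reading, over the 9 arrays, the brighter of its probes spanned a 1.24-fold range and the other a 1.17-fold range. In neither probe did a difference between groups pass an adjusted p of 0.05. The 95% intervals of the 6 differences between groups reached a 1.27-fold higher or 1.24-fold lower level. With all spots the probes spanned 1.83-fold and 2.26-fold ranges, still no difference passed, and the intervals reached from 0.558-fold to 2.13-fold. These limits hold only for the scaling used, to probes detected on every array. Without scaling the brighter probe was at 0.25 (log2, SE 0.19) for the high fat diet against controls. Scaled over all probes, it was at 0.85 for metformin against controls (limma adjusted p = 0.0174), with the median of all probes at 0.82. The passenger strand, miR-122-3p, was read near background on every array and showed no difference that passed in either reading of the spots.

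Levels are log2 values of the background-subtracted intensity over the 75th percentile of each array. The 187 probes detected on every array set that percentile. Detection required that a share above 0.5 of the probe's spots be marked by the software as well above background. Levels of different probes were not set against each other, because brightness also depends on how well a probe binds. Whether miR-122-5p outranked other miRNAs was therefore not read from these arrays.

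A fault of the arrays bears directly on miR-122. On 6 of the 9 arrays, strips of columns at the left or right edge held bright probes' spots that had lost signal, among others that kept it. The share of all spots inside the strips was 0%, 31.1% and 0% for metformin pools 1, 2 and 3. High fat diet pools had 53.6%, 0% and 33.6% of spots there, and control pools 43.8%, 43.5% and 41.1%. Strips thus touched 1 of 3 metformin pools, 2 of 3 pools on the high fat diet and 3 of 3 control pools. Values are therefore given first with the strips left out. The reading of all spots, set beside them, keeps the strips and takes the mean over spots that bear no outlier mark of the software. For each miR-122-5p probe it rested on 5 to 15 spots per array.

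The spots of miR-122-5p show the fault plainly. Each of its probes has 15 spots per array, placed in different columns. Of the 270 spots on the 9 arrays, 69 gave under 0.5 of their probe's usual signal (a quantile of 0.8 of its spots on that array), and 67 of these lay inside the strips. By group the number was 8 of 90 spots with metformin, 24 of 90 on the high fat diet and 37 of 90 in controls. Within single arrays the fall was steep. On high fat diet array 1 the brighter probe's spots read up to 21368 on the left side and as low as 0.356 in the strip. On high fat diet array 2, which had no strip, the same probe's 15 spots lay between 25131 and 29897.

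**Figure D1:**
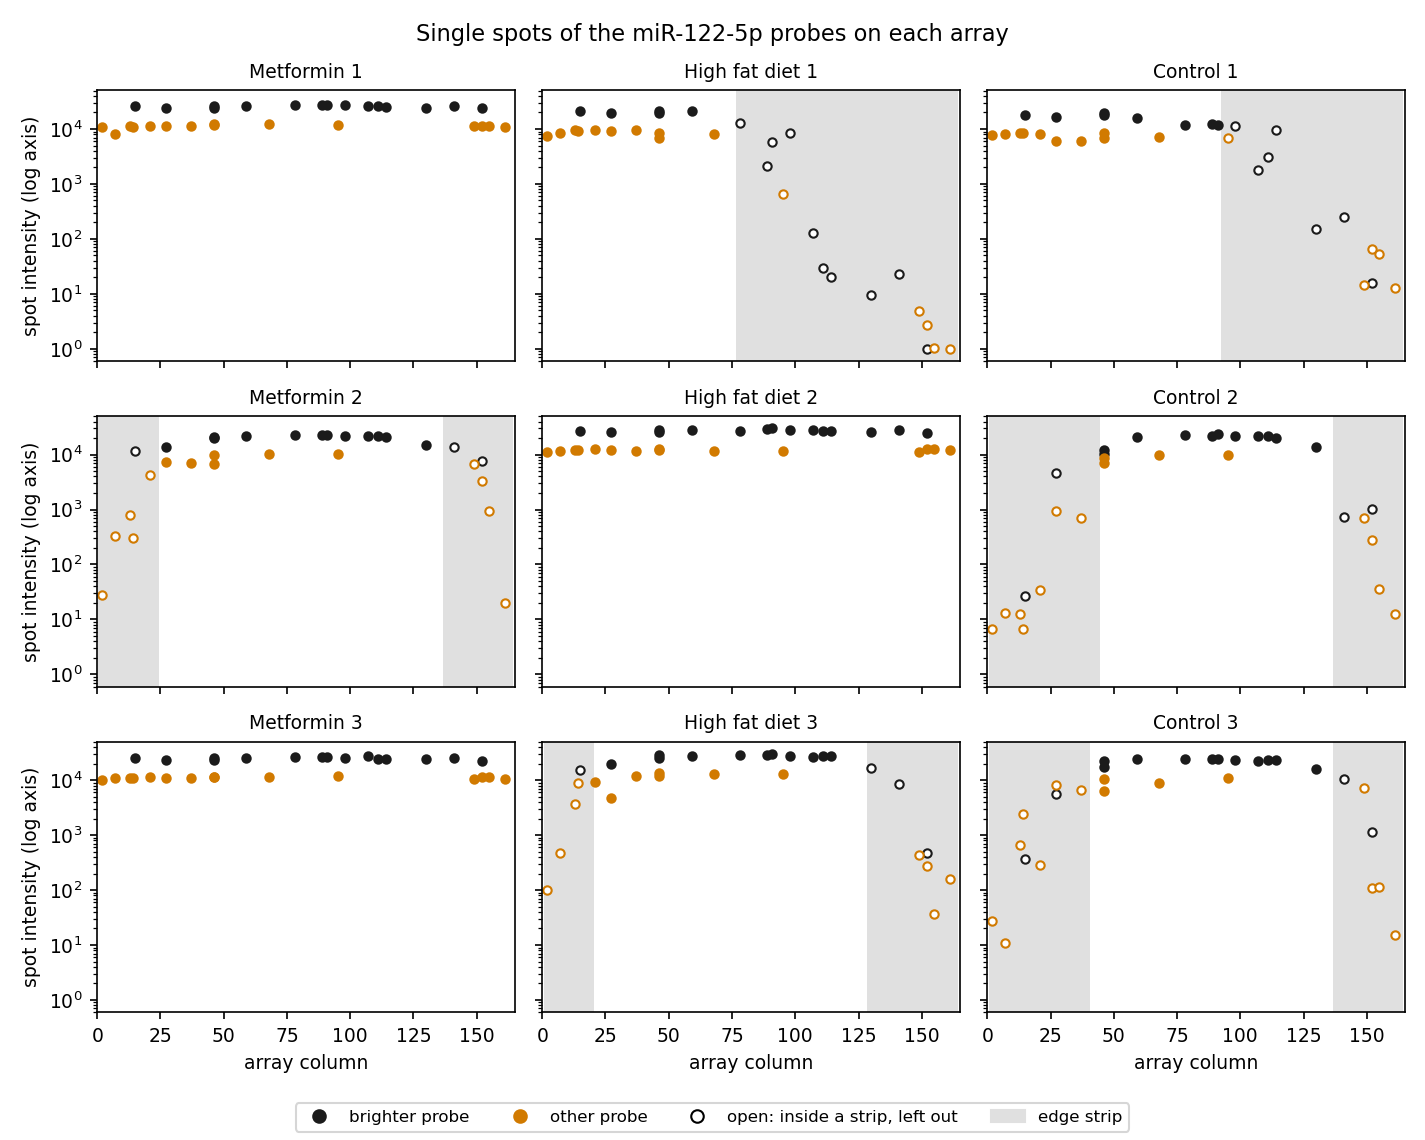
Intensity of every miR-122-5p spot (log axis) against its column on the array, 1 panel per array, with black points for the brighter probe, orange points for the other, open points for spots left out and grey for the strips. Readings below 1 are drawn at 1. On the 6 arrays with strips many spots inside them fall by orders of magnitude, while some keep much of their signal, such as the other probe's at 8297 on control array 3. Most spots outside the strips lie near one level, with exceptions such as the other probe's at 4701 on high fat diet array 3 and the brighter probe's at 10371 on control array 2.

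The probes were not hit alike. The other probe has 7 of its 15 spots in the leftmost 44 columns, the widest left strip, and the brighter probe has 2. On control arrays 2 and 3, 11 of the other probe's 15 spots lay in the strips, against 4 of the brighter probe's. After the strips and marked spots were left out, the brighter probe rested on 4 to 15 spots per array and the other on 3 to 15. The SD of log2 intensity among the spots used was 0.04 to 0.10 for the brighter probe and 0.01 to 0.15 for the other. No miR-122 spot was saturated: the brightest read 29991, against a saturation level of at least 777628.

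Both probes read the same RNA, so the gap between their log2 levels should hardly vary from array to array. This gives a measure of how well the probes repeat each other. Scaling and other errors shared by a whole array cancel in the gap and cannot show in it. With the strips left out, the gap had an SD of 0.04 over the 9 arrays and a range of 0.09, or 1.06-fold. With all spots its SD was 0.63 and its range 1.98, or 3.95-fold. The strip-free reading of miR-122-5p thus repeated far more closely between probes than the reading of all spots. These readings also differ in taking the median or the mean and in the marks used, so the gap does not single out the strips.

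The brighter miR-122-5p probe had an intensity of 26279, 21928 and 25362 for metformin pools 1, 2 and 3, of 20946, 27139 and 27903 for the high fat diet pools, and of 18152, 22196 and 23540 for the control pools. Scaled, these were levels of 6.71, 6.57 and 6.74 with metformin, 6.56, 6.60 and 6.43 on the high fat diet, and 6.56, 6.65 and 6.71 in controls. The array of the third high fat diet pool was lowest and that of the third metformin pool highest, and each pair of groups overlapped. Group means were 6.67 ± 0.09 with metformin, 6.53 ± 0.09 on the high fat diet and 6.64 ± 0.08 in controls (SD, n = 3 each).

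The other miR-122-5p probe had an intensity of 11416, 10040 and 10958 for the metformin pools, 9038, 11903 and 12746 for the high fat diet pools, and 8273, 9689 and 10432 for the control pools. Its levels were 5.50, 5.44 and 5.53 with metformin, 5.35, 5.42 and 5.30 on the high fat diet, and 5.42, 5.45 and 5.53 in controls. The high fat diet pools lay lowest and did not overlap either other group, though the nearest high fat diet and control arrays both round to 5.42. The means were 5.49 ± 0.05 with metformin, 5.36 ± 0.06 on the high fat diet and 5.47 ± 0.06 in controls (SD, n = 3 each). In both probes the order of means was thus metformin, control, high fat diet, with no neighbours that differed by the test.

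**Figure D2:**
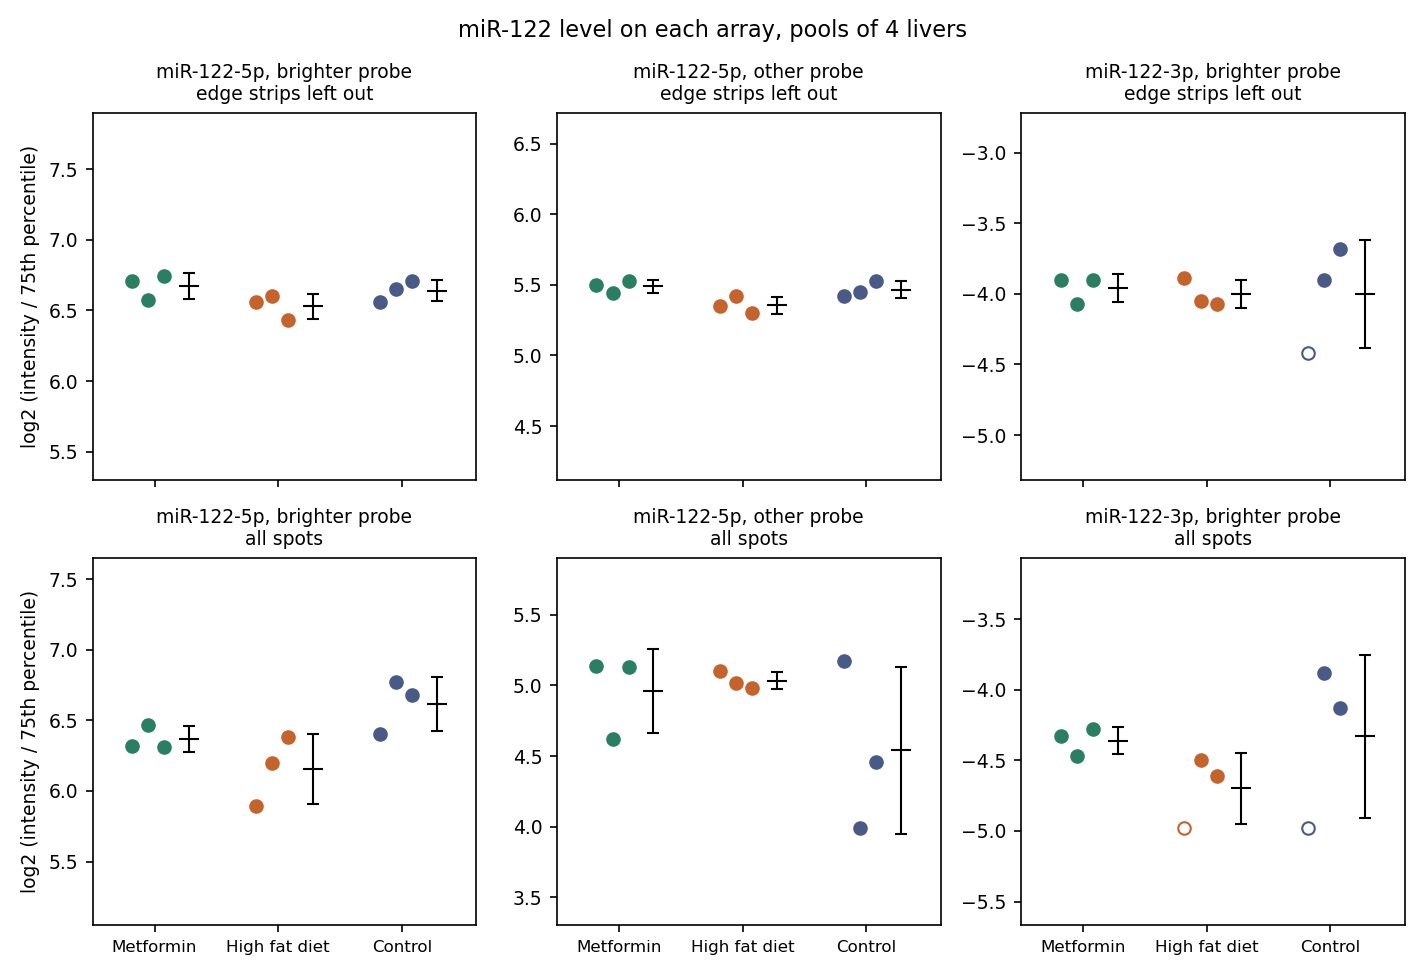
Level of the miR-122 probes on each array, as log2 of intensity over the array's 75th percentile, with the strips left out (top) and with all spots (bottom). Points are pools 1 to 3 of each group from left to right, open where the probe was not detected, with the mean and SD as a bar beside them, and every panel spans the same height on the log2 scale. The 3 groups lie close together in the top panels of miR-122-5p and scatter more in the bottom ones.

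The high fat diet was set against chow to ask whether the diet moved miR-122. The brighter 5p probe differed by -0.10 (SE 0.09, 95% interval -0.31 to 0.10, limma adjusted p = 0.447) and the other by -0.11 (SE 0.08, interval -0.30 to 0.07, adjusted p = 0.344). An exact two-sided permutation test of the arrays gave p = 0.3 and p = 0.1, and 0.1 is the smallest p that 3 against 3 arrays allow. Of the 226 probes tested, 11.5% passed in this comparison, 8 higher and 18 lower on the high fat diet, and in 36.7% the arrays of the groups did not overlap. Not overlapping was thus common on these arrays, and the other miR-122-5p probe was one of many.

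Metformin was set against the high fat diet to ask what the drug added. miR-122-5p differed by 0.14 in the brighter probe (SE 0.09, interval -0.07 to 0.34, limma adjusted p = 0.584, exact permutation p = 0.2). In the other probe the difference was also 0.14 (SE 0.08, interval -0.05 to 0.32, adjusted p = 0.561, exact permutation p = 0.1). That is 1.10-fold in each, higher with metformin, within an interval that includes 0. By limma 0% of the 226 probes passed here, with 25 at an unadjusted p under 0.05, and 23% had groups that did not overlap.

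Metformin with the high fat diet was then set against chow. Differences of miR-122-5p were 0.04 in the brighter probe (SE 0.09, interval -0.17 to 0.24, limma adjusted p = 0.871, exact permutation p = 0.6). In the other probe the difference was 0.02 (SE 0.08, interval -0.16 to 0.21, adjusted p = 0.894, exact permutation p = 0.8). In this comparison 0.885% of the probes passed, and 25.2% had groups that did not overlap. The 3 comparisons share their arrays in pairs and are not independent of each other.

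**Figure D3:**
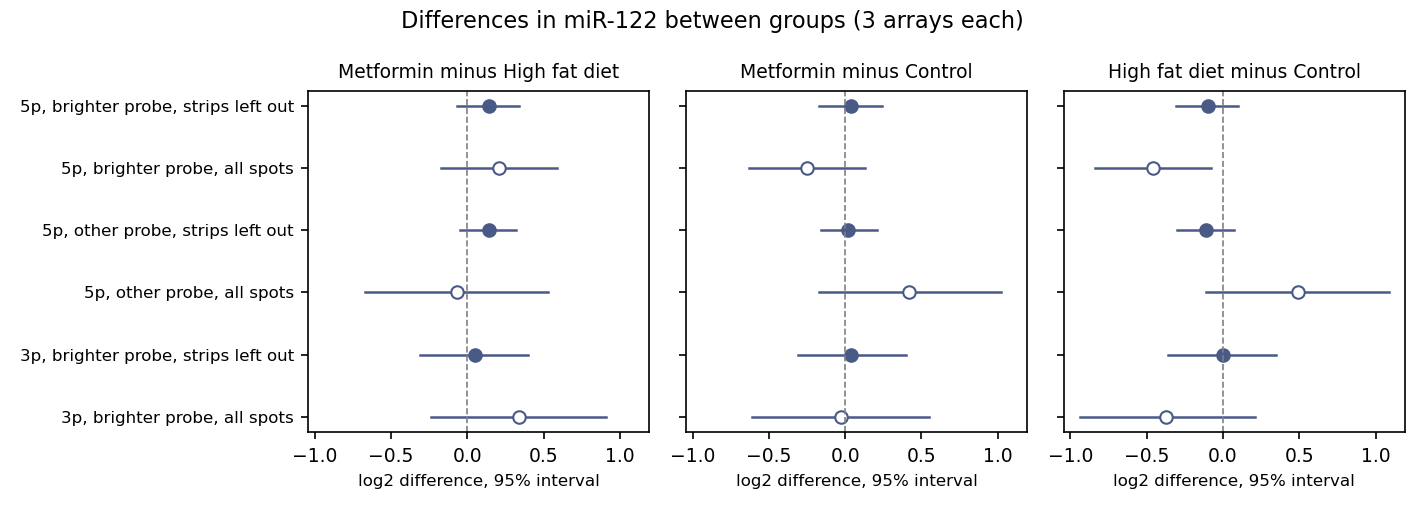
Differences between groups in log2 level for the miR-122 probes, with 95% intervals from limma, filled where the strips were left out and open where all spots were used. Strip-free differences of miR-122-5p lie between -0.11 and 0.14, and with all spots the 5p probes point opposite ways in each comparison.

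The same comparisons read from all spots gave another picture, and it differed between probes of the same miRNA. For the brighter probe the levels were 6.32, 6.47 and 6.31 with metformin, 5.89, 6.20 and 6.38 on the high fat diet and 6.40, 6.77 and 6.68 in controls. The high fat diet arrays all lay below the control arrays, with a difference of -0.46 (SE 0.17, limma adjusted p = 0.214, unadjusted p = 0.0231). For the other probe the levels were 5.14, 4.62 and 5.13 with metformin, 5.10, 5.02 and 4.98 on the high fat diet and 5.17, 3.99 and 4.46 in controls.

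There the high fat diet arrays were on average above the controls, with a difference of 0.49 (SE 0.27, limma adjusted p = 0.354). Metformin against the high fat diet was 0.21 in the brighter probe and -0.07 in the other (adjusted p = 0.867 and 0.989). Metformin against controls was -0.25 in the brighter probe and 0.42 in the other (adjusted p = 0.652 in both). By limma 0% of the 223 probes tested with all spots passed in each comparison, with 41 at an unadjusted p under 0.05 for the high fat diet against controls, 11 for metformin against the high fat diet and 25 for metformin against controls. Groups that did not overlap were found in 22.4%, 13% and 17% of these probes.

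The authors' deposited values carry the same mix. They hold 1 value per miRNA, the log2 of the scanner software's total signal plus 1 constant per array, and no source used here says how those constants were chosen. For miR-122-5p they read 10.84, 10.78 and 10.79 for metformin pools 1, 2 and 3, 10.88, 10.96 and 10.22 for the high fat diet pools, and 10.88, 10.76 and 10.66 for the control pools. The third high fat diet pool stands lowest there too, by more than in the strip-free reading. The total signals under these values were 7919, 4914 and 7642 with metformin, 3091, 8332 and 6087 on the high fat diet, and 3293, 3614 and 4590 in controls. The 3 highest totals are those of the 3 arrays without strips. With each array of this table centred on its own 75th percentile, miR-122-5p differed by 0.15 between metformin and the high fat diet, 0.15 between metformin and controls and 0.00 between the high fat diet and controls, and none passed by limma.

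The passenger strand, miR-122-3p, was measured by 1 of its probes only. That probe's intensity was 16.9, 13.7 and 15.8 with metformin, 14.9, 16.8 and 19.2 on the high fat diet, and 9.03, 14.8 and 17.6 in controls. The mean local background per array lay between 16.1 and 20.9, so these background-subtracted signals were of the order of the background itself or below it. The lowest, 9.03 on control array 1, stood against a local background of 20.9. The probe was detected for 3 of 3 metformin pools, 3 of 3 high fat diet pools and 2 of 3 control pools, missing control array 1, where it read lowest on 5 spots.

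Scaled levels of miR-122-3p were -3.90, -4.07 and -3.90 with metformin, -3.89, -4.05 and -4.07 on the high fat diet, and -4.42, -3.90 and -3.68 in controls. The control group held both the lowest and the highest array, so all groups overlapped. Differences were 0.05 for metformin against the high fat diet (SE 0.16, interval -0.31 to 0.40, limma adjusted p = 0.912), 0.04 for metformin against controls (interval -0.31 to 0.40, adjusted p = 0.894) and 0.00 for the high fat diet against controls (interval -0.36 to 0.35, adjusted p = 0.995). These intervals are wider than those of the guide strand. With all spots miR-122-3p stood at -4.33, -4.47 and -4.28 with metformin, -4.98, -4.50 and -4.61 on the high fat diet, and -4.98, -3.88 and -4.13 in controls, where -4.98 is the floor of that reading. There metformin did not overlap the high fat diet (0.34, limma adjusted p = 0.867, exact permutation p = 0.1), the high fat diet against controls was -0.37 (adjusted p = 0.478), and metformin against controls was -0.03 (adjusted p = 0.967). The other 3p probe was detected on 0 of 9 arrays and held the floor set for dim probes on each, so it carries no order of groups. By the scanner software's own call for the whole miRNA, miR-122-3p was not detected for control pool 1 and high fat diet pool 1.

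Of the arrays, 8 share a slide and lie in 2 rows of it, and control array 3 lies alone on another slide. Row 1 holds the 3 high fat diet arrays with metformin array 1, and row 2 holds metformin arrays 2 and 3 with control arrays 1 and 2. Within row 1 the metformin array exceeded the high fat diet mean of miR-122-5p by 0.17 in the brighter probe and 0.15 in the other. Within row 2 the metformin mean exceeded the control mean by 0.05 in both probes. The high fat diet and control arrays share no row, so for that comparison row and diet cannot be told apart except through the metformin arrays.

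To see which miRNAs kept the most constant ratio to miR-122-5p, the log2 ratio of each miRNA to the brighter 5p probe was taken on every array, which cancels the scaling. The SD of that ratio over the 9 arrays ranked 117 miRNAs detected on all of them, and its median was 0.184. The smallest SDs were those of miR-20b-5p (0.075), of the miR-17 family, miR-103-3p (0.079), a regulator of insulin sensitivity in mouse liver, let-7c-5p (0.080), let-7b-5p (0.087) and miR-345-5p (0.088). With the other 5p probe in its place they ranked 3, 6, 2, 5 and 7. Levels of miR-20b-5p (-2.77 to -2.39) and miR-345-5p (-3.20 to -2.82) were low. The sequences of let-7c-5p and let-7b-5p differ at a single base, and whether their probes tell them apart was not tested. The points share arrays, and miRNAs that hardly vary have small ratios to each other by construction, so this describes level profiles and nothing more.

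Their mature sequences are shown with the seed, bases 2 to 8, in capitals, to let the reader see which of them share a seed and hence a set of predicted targets. The sequences are RefSeq's (GRCm38.p6), which held all 5, and the let-7 members share the seed GAGGUAG while the other 3 each have their own.
miR-20b-5p: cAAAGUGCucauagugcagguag
miR-103-3p: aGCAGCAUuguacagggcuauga
let-7c-5p: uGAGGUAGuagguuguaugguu
let-7b-5p: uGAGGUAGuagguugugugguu
miR-345-5p: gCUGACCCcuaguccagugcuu

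None of these 5 differed between groups by the test. Their largest differences were -0.18 for miR-20b-5p, high fat diet against controls (SE 0.10, limma adjusted p = 0.217), and 0.17 for let-7b-5p, metformin against controls (SE 0.08, adjusted p = 0.260). As with miR-122-5p, what they show is a small spread over the 9 pools.

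At the other end were miR-34a-5p, a p53 target that represses Sirt1 (SD 0.659), the red cell miRNA miR-451a (0.643) and miR-494-3p (0.415). miR-34a-5p was higher on the high fat diet than in controls by 1.37 (SE 0.14, limma adjusted p = 0.000304) and higher with metformin than in controls by 0.80 (SE 0.14, adjusted p = 0.019). The call of metformin against controls was lost with all spots (0.59, limma adjusted p = 0.295) and without any 1 of the metformin arrays. It was also lost with normexp (0.41, limma adjusted p = 0.0665, the median of all probes at -0.10). That call passed in 15 of 25 alternatives. miR-451a was at -1.01 for metformin against the high fat diet (SE 0.28, adjusted p = 0.149) and did not pass.

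**Figure D4:**
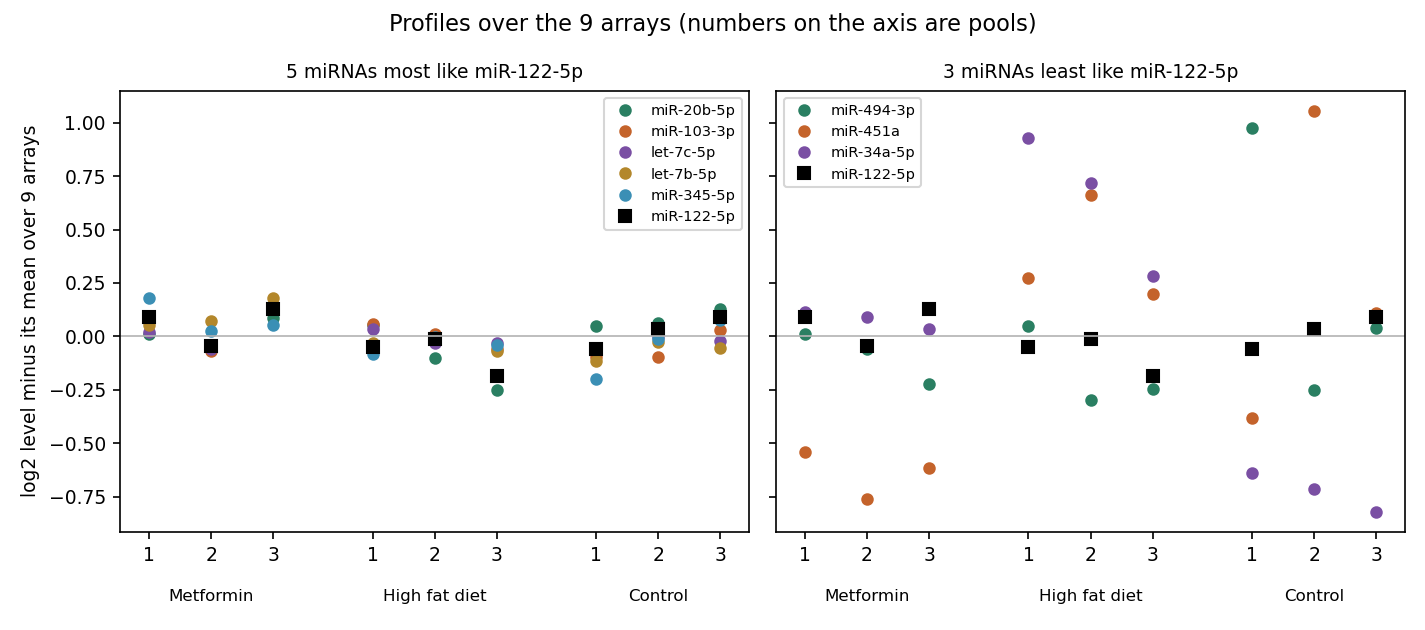
Log2 level of each miRNA minus its own mean over the 9 arrays, for pools 1 to 3 of each group, with miR-122-5p as black squares. The 5 miRNAs most like it (left) stay within about its own spread, while miR-34a-5p, miR-451a and miR-494-3p (right) move by up to 1.06 away from their means.

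Other miRNAs enriched in hepatocytes were set beside miR-122, from a list of 11. Of these, 5 were detected on all 9 arrays and tested, and 0 rose and 0 fell in any comparison by limma, with 1 (miR-148a-3p) at an unadjusted p under 0.05 in each of the comparisons with controls. For the high fat diet against controls their median difference was 0.22, against 0.03 over the 143 miRNAs tested by 1 probe each, of which 12.6% passed. Values were 0.08 for miR-192-5p, 0.22 for miR-194-5p and 0.37 for miR-148a-3p (adjusted p = 0.643, 0.227 and 0.0744), where miR-122-5p was at -0.10. For metformin against the high fat diet the list's median was -0.07 (all miRNAs -0.06, 0% passed), and for metformin against controls 0.15 (all miRNAs 0.00, 1.4% passed). miR-802-5p was detected on 2 high fat diet arrays and on none of the others.

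miRNAs known to act on lipids and cholesterol, as miR-122 does, made a list of 16, of which 10 were tested. On the high fat diet 2 rose against controls and 0 fell: miR-34a-5p and miR-185-5p, which represses cholesterol uptake and synthesis genes (0.53, SE 0.10, limma adjusted p = 0.00835). Over all 143 miRNAs 12.6% passed in that comparison. The list's median was 0.20, against 0.03 over all miRNAs. miR-378a-3p, which lies within the gene of the coactivator PGC-1 beta, was at 0.24 (adjusted p = 0.0999), and miR-33-5p, made from an intron of the SREBP-2 gene, was detected on 0 arrays. With metformin 1 rose against controls, miR-34a-5p (1.4% of all miRNAs passed), and 0 rose or fell against the high fat diet, with 2 at an unadjusted p under 0.05. With all spots these calls were lost: against controls, miR-34a-5p was at 0.97 on the high fat diet and 0.59 with metformin, and miR-185-5p at 0.54 on the high fat diet (limma adjusted p = 0.059, 0.295 and 0.136). Without high fat diet array 2 miR-185-5p had an adjusted p of 0.0504, and without metformin array 1, 2 or 3 miR-34a-5p in metformin against controls had 0.0798, 0.142 or 0.115. With the normexp background correction miR-185-5p was at 0.00 (limma adjusted p = 0.996), while the median of all probes moved to -0.14. Over the alternatives run, the call of miR-185-5p passed in 18 of 26 and that of miR-34a-5p on the high fat diet in 20 of 25.

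Markers of other cells were read beside miR-122 as a check on what the pools held. Each summed scaled level covers every miRNA of its list, and those under the floor of 0.0406 enter at the floor. A sum weighs its members by how bright their probes are, so it is compared between arrays only. Of 6 leukocyte miRNAs 3 were tested, among them miR-142a-3p and miR-146a-5p, each detected on 2 of 3 control arrays and on all arrays of the other groups. The list's sum lay between 0.426 and 0.454 with metformin, 0.454 and 0.521 on the high fat diet and 0.430 and 0.514 in controls. Of 4 erythroid miRNAs only miR-451a was tested, with the list's sum at 0.382 to 0.424 with metformin, 0.626 to 0.817 on the high fat diet and 0.459 to 1.04 in controls. The 3 endothelial miRNAs, of which miR-126a-3p was tested, summed to 2.77 to 3.36 with metformin, 3.21 to 3.27 on the high fat diet and 2.70 to 3.01 in controls. None of these lists held a miRNA that passed by limma, and only miR-451a had an unadjusted p under 0.05, in both comparisons of metformin.

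Of 7 stellate and mesenchymal miRNAs 3 were tested and 4 were detected on 0 arrays. Of the tested ones, miR-199a-5p and miR-199b-5p were detected on 2 of 3 control arrays and on all arrays of the other groups. They passed the detection filter only through those other groups. miR-199a-3p, which is made by stellate cells, rose on the high fat diet against controls (0.31, SE 0.08, limma adjusted p = 0.0337). With all spots the call was lost (0.70, adjusted p = 0.142), and it remained in 3 of 9 fits that left out 1 array each, being lost without control array 3, any 1 high fat diet array, or metformin array 1 or 2 (adjusted p = 0.0504 to 0.114). With normexp it was at 0.05 (limma adjusted p = 0.639), while the median of all probes moved to -0.14. The call passed in 9 of 25 alternatives. Over all 143 miRNAs 12.6% passed in that comparison. The list's summed level was 0.496 to 0.511 with metformin, 0.523 to 0.588 on the high fat diet and 0.468 to 0.477 in controls. The groups did not overlap in this sum, and the high fat diet group, where miR-122-5p had its lowest mean, was highest. The endothelial sum on the high fat diet also lay above that of controls, and the erythroid sum with metformin below both other groups, each without overlap. Among single probes 36.7% (high fat diet against controls), 23% (metformin against the high fat diet) and 25.2% (metformin against controls) had groups that did not overlap. The part of the stellate miRNAs in the level of miR-122 was not tested.

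The bile duct list (5 miRNAs) and the pancreas list (3) had 0 members tested, and the pancreas members were detected on 0 arrays. The muscle list (miR-1a-3p, miR-133a-3p and miR-206-3p) had 0 members tested, but its summed level was 1.77 on high fat diet array 3. On the other 8 arrays it was 0.122 to 0.192, where 0.122 is 3 miRNAs at the floor. High fat diet array 3 also had the lowest scaled miR-122-5p level in both probes. Before scaling, its intensities in these probes, 27903 and 12746, were the highest of all arrays, as was its 75th percentile (323.3). Without that array, miR-122-5p in the brighter probe differed by -0.05 between the high fat diet and controls (limma adjusted p = 0.707). Between metformin and the high fat diet it differed by 0.09 (limma adjusted p = 0.719). In the other probe these values were -0.09 (adjusted p = 0.534) and 0.11 (adjusted p = 0.652). Leaving the array out removes all of its signal, not muscle RNA alone. The part that muscle RNA in this pool had in the result was not tested.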

How the data were processed

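miRNA from 9 pools of mouse liver was labelled with Cy3 and hybridised to 1-colour Agilent mouse miRNA arrays, per the labels' protocols. Spot intensity, per the file headers, came from Feature Extraction 11.5.1.1 with background subtracted, spatial trends removed and arrays left unscaled. The submitters' processing notes name version 10.7. In the deposited table each log2 value equalled the log2 total signal shifted by one number per array, -2.35 to -0.71, apart from 0 to 6 miRNAs that were off by over 0.001.

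Strips were found from probes whose upper spots (quantile 0.8) exceeded an intensity of 100. A strip grew inward from an edge by 4 columns at a time for as long as 10% or more of such spots read under 0.5 of that level, and ended before 2 consecutive steps with fewer. A probe's value was the median over spots outside the strips that bore no non-uniformity mark, and 425 of 4415 probes were dropped because some array left them fewer than 3. Scaling used each array's 75th percentile, which lay between 192.9 and 323.3. Values were floored at 0.0406 of it, and put on the log2 scale. Tests covered probes detected in every pool of 1 group or more and used limma 3.58.1 in R 4.3.3 (files read with data.table, version 1.17.8), as 3 group means with 1 shared spread. Tests were two-sided, with Benjamini-Hochberg adjustment over all probes tested and 0.05 as the threshold. The limma fit was tried on simulated levels with planted differences. The strip rule was tried on an array without strips, with an even loss of signal planted at both edges. Real strips were uneven and up to 88 columns wide, a case not simulated. Precision is limited by the number of arrays, and a difference had a median SE of 0.12. Of the 36 pairs of arrays 0 were identical.

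The miRNA, the lists and the strip-free reading were chosen with earlier results of these data known. Named were all probes of miR-122, the 5 miRNAs most and 3 least like miR-122-5p by the SD of the log2 ratio, up to 4 members of each list in its written order, and list members that passed. Each miRNA beside miR-122 stands for its probe with the highest mean. Alternatives changed the spots used, the strip rule, the background correction, the scaling, the filter, the arrays in the fit and the blocks. Using the same spots on every array also kept spots marked non-uniform. For the brighter 5p probe on control array 2, the spots at 12034 and 10371 were marked and that at 20920 was not. The slide fit left out control array 3, which lies alone on its slide, so no slide term remained. It nearly repeats the fit without that array, and both are counted.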

Additional observations from a re-analysis of the deposited data

How the results depend on the processing

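No alternative made a miR-122 difference pass in the high fat diet against controls or in metformin against the high fat diet. One did in metformin against controls: scaling to the 75th percentile over all probes, most of them dim, put miR-122-5p at 0.85 in the brighter probe (limma adjusted p = 0.0174) and 0.83 in the other, and miR-122-3p at 0.85. That scaling moved the median of all probes to 0.82, against 0.02 as reported, and called 159 of them, so relative to that median miR-122 hardly moved. It put the high fat diet against controls at 0.43, 0.42 and 0.53 for these probes, with the median of all probes at 0.56.

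For the brighter miR-122-5p probe, high fat diet against controls turned sign with quantile normalization (0.12), with the deposited table (0.00, above zero before rounding), without scaling (0.25, the median of all probes at 0.38) and with the same spots on every array (0.17). Metformin against controls turned with the mean (-0.25) and the median (-0.11) of all spots, and metformin against the high fat diet without scaling (-0.04, all probes -0.23). For the other 5p probe, high fat diet against controls turned with the mean (0.49) and median (3.10) of all spots and without scaling (0.24), and metformin against the high fat diet with the mean of all spots (-0.07) and without scaling (-0.04). With the median of all spots metformin against controls kept its sign at 3.19 (0.02 as reported), and with the mean at 0.42. For the brighter probe that median gave -0.53 for the high fat diet against controls and 0.42 for metformin against the high fat diet. Quantile normalization gave the other probe 0 throughout, since it held the same rank on each array. For miR-122-3p, high fat diet against controls, at 0.00, turned to 0.09 with quantile normalization, 0.07 with the row block and 0.31 without scaling. It was 0.06, 0.15 (also the slide fit), 0.03 and 0.03 without control arrays 2 and 3 and high fat diet arrays 2 and 3. Its metformin against controls turned to -0.03 with the mean of all spots, -0.10 with normexp (all probes -0.10) and -0.03 without control array 1. Its metformin against the high fat diet turned to -0.13 without scaling. None of these passed, and their cause was not tested.

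For miR-122-3p, leaving out 1 array at a time gave -0.12 to 0.15 for the high fat diet against controls and -0.03 to 0.20 for metformin against controls. It gave -0.13 to -0.05 for the brighter 5p probe, high fat diet against controls, 0.09 to 0.19 for metformin against the high fat diet and 0.00 to 0.13 for metformin against controls. The labels do not say whether replicate numbers pair the pools. Same-numbered deviations correlated between -0.203 and 0.441, which cannot decide it with 3 arrays per group. With the replicate block that probe was at -0.10, 0.14 and 0.04 in this order (limma adjusted p = 0.5, 0.619 and 0.883). Counts of probes that passed were 26, 0 and 2 as reported, and 0 to 79, 0 to 10 and 0 to 159 over the alternatives.

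The same spots (columns 45 to 76) and no scaling were chosen after seeing the data. These spots were 3 per 5p probe, marked ones kept, and put the brighter probe at 5.49 on control array 2 (others 6.09 to 6.43). In normexp the spot median signal stood in for the mean. Its offset of 50 on every intensity makes log2 differences of dim probes smaller. The strip threshold of 5% left the other 5p probe under 3 spots, and the deposited table and 1 value per miRNA hold 1 value for both 5p probes.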
